A study of Mus musculus with 6 samples.

Results

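The genes described here are Cntnap2, Opcml, Tenm2, Lrrc4c, Lrrtm4, Lsamp, Il1rapl1, Fam155a, Galntl6 and Csmd3, 10 of the 19954 gene symbols counted in nuclei of the mouse spinal cord. They were chosen by measured values of these same libraries: 9 because their counts were higher in glial nuclei after epidural electrical stimulation (TESS), and Csmd3 because its counts were lower in microglia. No threshold was stated for the choice. The glial differences between TESS and control that chose the genes are given below as values with their spread, and nothing is supported by a test of them. Neurons, which the choice did not use, were tested.

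Most of these genes encode cell surface proteins through which neurons find and hold their partners. IgLON proteins, contactin-associated proteins, teneurins and leucine-rich repeat proteins sit on axons, dendrites and synapses and bind partners on the facing cell. Genes of this kind are often very long and nearly all of their sequence is intron, so that nuclear RNA, which is rich in unspliced transcripts, carries a large amount of signal from them.

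The libraries came from wild type C57BL/6 mice with both legs paralysed by a severe thoracic contusion. All mice were placed on a treadmill for 30 min before collection, 3 libraries with TESS (TESS 1 to 3) and 3 without it (CON 1 to 3, labelled as paralysed). Agonists of 5-HT1a, a serotonin receptor, and D1, a dopamine receptor, are named for the TESS mice, and no label tells if CON mice had them too. Age is not used here, and the labels do not say that each library is a separate animal, so p-values measure the spread between these libraries, which may be partly technical. The source label is lumbar cord, whereas the protocol for nuclei speaks of dissecting the injury site in the thoracic cord. Nuclei were loaded at 5000 per library on 10x version 2 chemistry.

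The deposited table held 18514 nuclei, 6035 of them neurons and 12479 in the authors' 5 other classes: oligodendrocytes, astrocytes, microglia, oligodendrocyte precursor cells (OPCs) and endothelial cells. The series states 20484 nuclei and 6171 neurons. CON libraries held 3365530 to 4037976 UMIs (unique molecular identifiers, 1 per captured RNA molecule) and TESS libraries 1582104 to 2891177, TESS 3 being the shallowest. CON 1, CON 2 and TESS 1 share the deposited batch number 3, and CON 3, TESS 2 and TESS 3 are alone in batches 4, 2 and 1. Of all nuclei, 411 carried 1 of 205 barcodes found in more than 1 library. Neurons made up 32.5% ± 0.411 of nuclei in CON and 32.6% ± 4.98 in TESS (SD, n = 3; p = 0.9, two-sided exact permutation test, smallest possible p 0.1). Microglia, where most of the values below lie, were 178 to 330 nuclei per library with 53162 to 143060 UMIs, and endothelial cells 25 to 62 nuclei.

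In the GENCODE vM21 annotation (GRCm38) all 10 are protein-coding genes of 565 to 2245 kb, of which exons cover 0.352% to 1.39%. Cntnap2, a contactin-associated protein that helps to cluster potassium channels along myelinated axons, lies at chr6:45059357-47304213. Opcml at chr9:27790775-28925410 and Lsamp at chr16:39984361-42181679 encode IgLON proteins, which are anchored to the outer face of the membrane. Tenm2 at chr11:36006656-37235964 encodes a teneurin, a partner of latrophilins across the synapse. Lrrc4c at chr2:96318169-97631666 encodes a postsynaptic ligand of netrin-G, and Lrrtm4 at chr6:80018877-80810143 a leucine-rich repeat organiser of excitatory synapses. Il1rapl1 at chrX:86740870-88115645 encodes a synaptic receptor of the interleukin receptor family that binds receptor phosphatases.

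The other 3 are not classical adhesion genes. Fam155a at chr8:9205902-9771161 encodes an auxiliary subunit of the sodium leak channel NALCN. Galntl6 at chr8:57774052-58912640 belongs to the polypeptide GalNAc transferase family, whose enzymes start O-linked glycans. Csmd3 at chr15:47580637-48792063 encodes a large membrane protein with CUB and sushi domains. Whether counting used the strand is not given in the sources used here. Galntl6 overlaps Gm26905 on the other strand (2534 UMIs against 23373 of Galntl6), so its counts are uncertain in origin. Lrrc4c, Lrrtm4 and Lsamp also overlap opposite-strand genes with 79 to 342 UMIs, against 45041 UMIs or more of their own.

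RefSeq windows (GRCm38.p6) from 250 bases before to 50 after a transcript start were found for 8 of the 10 genes, 11 windows in all. The windows of Cntnap2 (chr6:45059811-45060110, plus strand) and Lrrtm4 (chr6:80018627-80018926, plus strand) are shown because these genes were each called higher in 3 glial classes below. Each runs 5′ to 3′, and capitals mark TTTATA, which is TATAAA on the other strand.
Cntnap2: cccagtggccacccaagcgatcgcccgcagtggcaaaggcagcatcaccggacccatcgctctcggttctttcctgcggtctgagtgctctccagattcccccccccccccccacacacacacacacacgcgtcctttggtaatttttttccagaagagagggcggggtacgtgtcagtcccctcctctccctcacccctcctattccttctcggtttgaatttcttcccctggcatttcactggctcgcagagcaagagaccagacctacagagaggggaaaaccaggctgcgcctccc
Lrrtm4: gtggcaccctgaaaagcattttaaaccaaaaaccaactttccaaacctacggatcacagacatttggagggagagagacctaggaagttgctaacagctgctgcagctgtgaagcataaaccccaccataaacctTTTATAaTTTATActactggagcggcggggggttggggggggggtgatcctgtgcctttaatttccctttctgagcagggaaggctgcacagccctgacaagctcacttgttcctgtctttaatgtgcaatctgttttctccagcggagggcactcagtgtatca
The motifs below were searched on both strands. TATAAA was in 2 of the 11 windows, those of Lrrtm4 shown here and of Galntl6, against 13.6% of 32851 windows of the same length. The cyclic AMP response element TGACGTCA was in 0 of 11 (1.79% of all windows) and the E-box CACGTG in 0 of 11 (7.15%). G and C made up 59.7% of the Cntnap2 window and 48.7% of the Lrrtm4 window, and the median of all windows was 52.7%.

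The name neuronal fitted only some of the genes. Levels are given as CPM, the UMIs of a gene over all UMIs of its class in the library, scaled to a common total, and each is a mean ± SD over all 6 libraries, so that the spread holds the TESS difference as well. A gene was called enriched in neurons where its mean was at least 4 times that of the 5 other classes, and Cntnap2, Tenm2, Lrrtm4, Fam155a and Galntl6 met it. Cntnap2 was at 5304 ± 419 CPM in neurons and between 282 ± 181 (astrocytes) and 517 ± 356 (microglia) elsewhere. Galntl6 was at 1899 ± 246 CPM in neurons and between 74.8 ± 41.7 (astrocytes) and 228 ± 206 (OPCs) elsewhere. Tenm2 was at 2672 ± 163 CPM in neurons, 686 ± 86.7 in oligodendrocytes, 569 ± 132 in OPCs, 285 ± 245 in microglia, 239 ± 158 in endothelial cells and 171 ± 128 in astrocytes. For these 3 genes every library was higher in neurons than any library of another class, and the non-neuronal neighbours in each order overlapped.

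Lrrtm4 and Fam155a had OPC levels close to neurons. Lrrtm4 was at 3659.8 ± 409.9 CPM in neurons and 3006 ± 303 in OPCs, with overlapping libraries, and at 174 to 248 in the other classes. Fam155a was at 2090.0 ± 207 CPM in neurons and 1725 ± 344 in OPCs, again overlapping, and at 129 to 242 in the others. The OPCs, the cells that give rise to oligodendrocytes, thus held these 2 transcripts at near neuronal levels while mature oligodendrocytes did not.

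The remaining 5 genes were highest outside neurons or level with them. Lsamp was highest in astrocytes at 14446 ± 1242 CPM, above OPCs (9513 ± 541) and neurons (9266 ± 626), which overlapped, and was at 861 ± 463 to 899 ± 670 in microglia, oligodendrocytes and endothelial cells. Opcml was highest in OPCs at 4419.8 ± 293 CPM, above neurons (1858 ± 134) and oligodendrocytes (308 ± 68.4) without overlap, followed by microglia (165 ± 119), endothelial cells (154 ± 89.9) and astrocytes (90.0 ± 31.3). Lrrc4c was highest in OPCs at 5676 ± 737 CPM, then overlapping in neurons (3234 ± 187) and astrocytes (3211 ± 291), then lower in oligodendrocytes (1492 ± 274), microglia (409 ± 252) and endothelial cells (351 ± 239). These 3 genes were thus at least as high in 1 glial class as in neurons.

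For Il1rapl1, OPCs (2233 ± 271 CPM) and neurons (2013 ± 182) overlapped, followed without overlap by astrocytes (1526 ± 169), oligodendrocytes (635 ± 90.8) and microglia (265 ± 135), the last overlapping endothelial cells (256 ± 153). Csmd3 was at 2454 ± 306 CPM in OPCs, 2169 ± 210.3 in neurons, 1737 ± 737 in microglia and 1472 ± 95.9 in oligodendrocytes, each overlapping its neighbour, and lower without overlap in astrocytes (516 ± 106) and endothelial cells (248 ± 103). The microglial mean of Csmd3 joins CON libraries near the neuronal level and TESS libraries below it, as given further on. Microglia held the other 9 genes at a small share of the neuronal level.

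**Figure D1:**
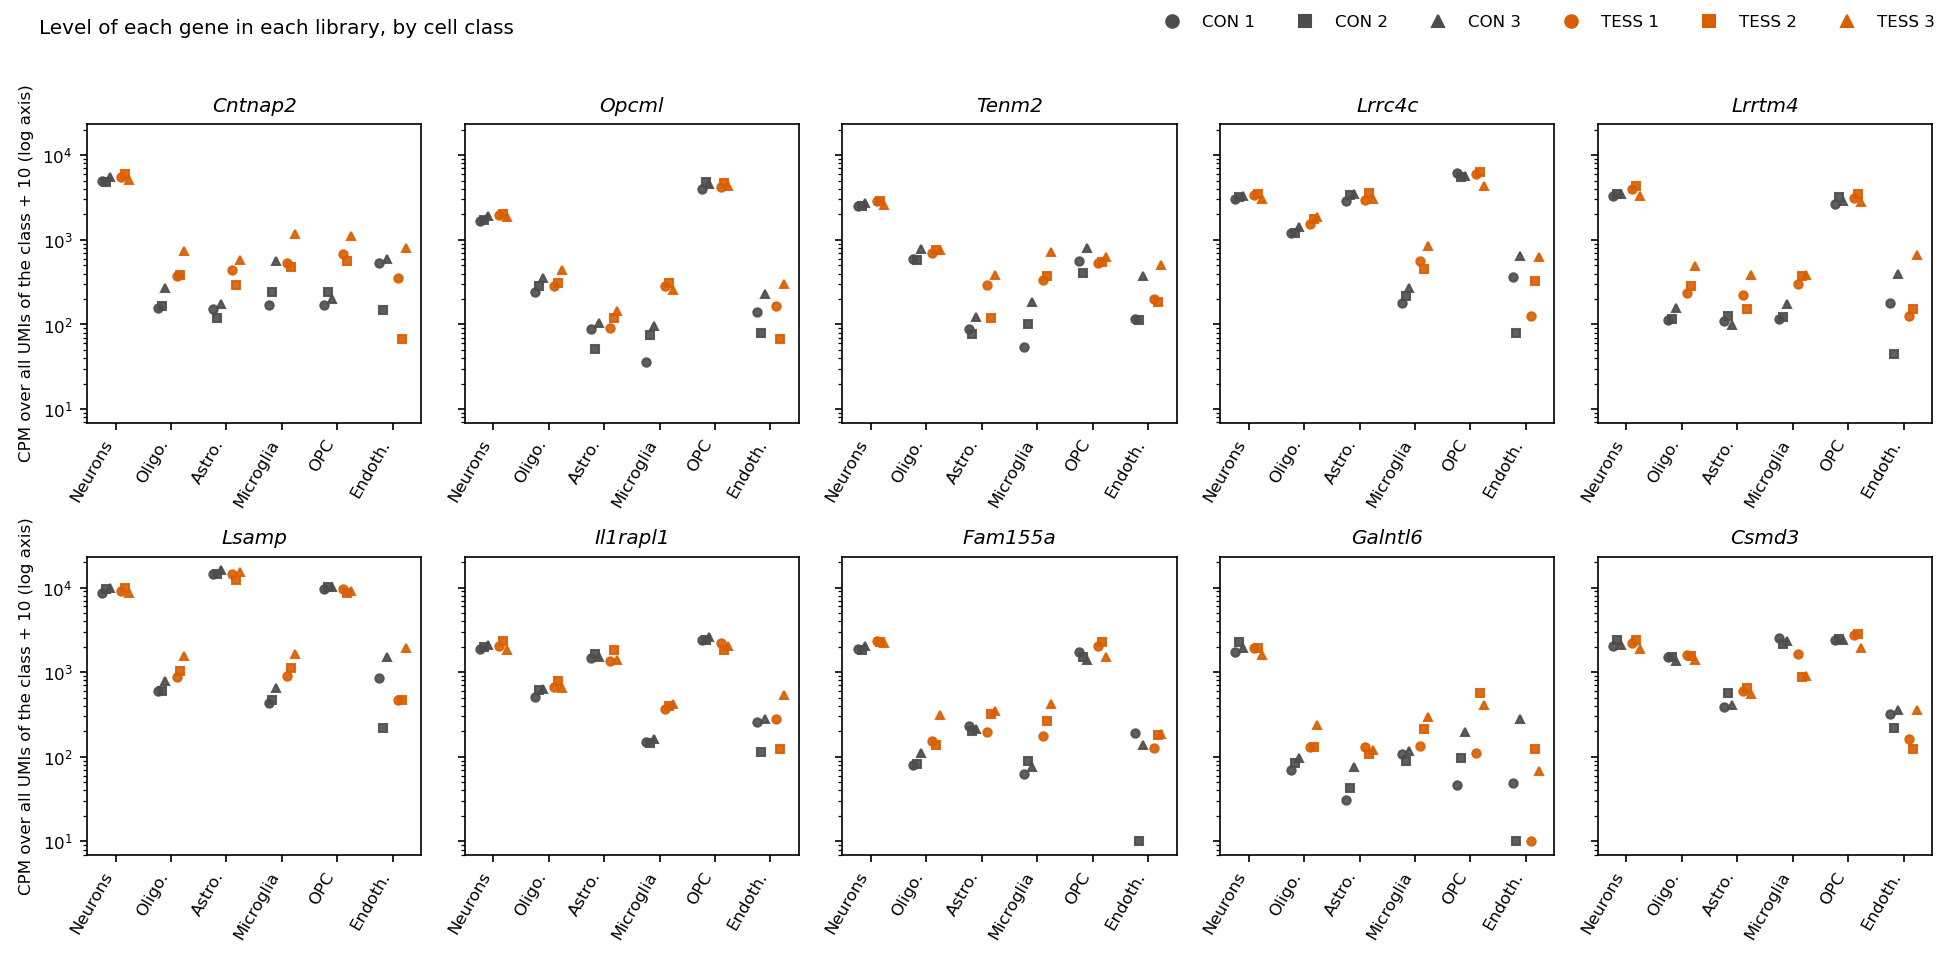
Level of each gene (CPM over all UMIs of the class, plus 10, log axis) in each of the 6 libraries, by cell class; grey marks are CON libraries and orange marks TESS libraries. In microglia 8 of the 10 genes have every TESS library above every CON library and Csmd3 has every TESS library below, while in neurons the groups overlap for all genes but Fam155a.

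Microglia, the resident macrophages of the cord, showed the widest difference. Over all genes tested in microglia, the share called (edgeR quasi-likelihood test, adjusted p below 0.05) was 1.04%, with 0.8% higher and 0.24% lower in TESS. Of the 10 genes, 7 were called higher, 1 was called lower, and 2 were not called. All TESS libraries were above all CON libraries for 8 of the 10 (8.6% of all genes tested) and below for 1 (8.76%). The choice of genes fixed these counts, and nothing is read from them.

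The IgLON genes were among those with large microglial differences. Opcml stood at 26.4, 64.2 and 86.9 CPM in CON 1 to 3 and at 273, 296 and 245 in TESS 1 to 3. Its log2 fold change was 2.19 ± 0.36 (TESS over CON, ± SE, n = 3 per group). These Opcml levels rest on few molecules, 20 UMIs in the CON libraries together and 74 in the TESS libraries. Lsamp stood at 423, 456 and 641 CPM in CON and at 895, 1117 and 1637 in TESS, a log2 fold change of 1.23 ± 0.23. For both genes the groups did not overlap, and Lsamp was highest in TESS 3.

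Tenm2 and Lrrc4c, whose proteins bridge the synaptic cleft, followed the same order. Tenm2 stood at 44.0, 92.7 and 174 CPM in CON and at 322, 363 and 715 in TESS (log2 fold change 2.11 ± 0.36). Lrrc4c stood at 167, 207 and 261 CPM in CON and at 545, 444 and 828 in TESS (1.47 ± 0.28). TESS 3 was the highest library for both and CON 3 the highest control.

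Lrrtm4, Il1rapl1 and Fam155a also separated the groups. Lrrtm4 stood at 106, 114 and 163 CPM in CON and at 294, 363 and 376 in TESS (log2 fold change 1.40 ± 0.30). Il1rapl1 stood at 141, 135 and 152 CPM in CON and at 356, 390.4 and 414 in TESS (1.40 ± 0.28), with a spread within each group that was small beside the gap. Fam155a stood at 52.9, 78.4 and 65.1 CPM in CON and at 168, 256 and 414 in TESS (1.89 ± 0.38). On the scale of neurons, the level of each of the 9 genes other than Csmd3 was 3.28% to 7.27% of its neuronal level in CON microglia and 9.01% to 19.0% in TESS microglia.

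Cntnap2 and Galntl6 were not called in microglia. Cntnap2 stood at 159, 235 and 554 CPM in CON and at 517, 471 and 1166 in TESS (log2 fold change 1.15 ± 0.51), with CON 3 above TESS 1 and TESS 2. Galntl6 stood at 96.9, 78.4 and 109 CPM in CON and at 126, 202 and 282 in TESS (0.96 ± 0.36). The groups of Galntl6 did not overlap, and its gap was narrow beside the spread of the TESS libraries.

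Csmd3 went the other way. It stood at 2554, 2153 and 2345 CPM in CON microglia and at 1622, 862 and 884 in TESS microglia, a log2 fold change of -1.03 ± 0.22. TESS 1 lay between TESS 2 and TESS 3 and the controls. Within batch 3, TESS 1 against CON 1 and CON 2, the Csmd3 value was -0.57, smaller by over 1.5 times. The summed level of 11 microglial markers was 23789 to 32618 CPM in CON and 19507 to 27408 in TESS microglia, and its part in the Csmd3 difference was not tested. In the other classes Csmd3 was not called, with log2 fold changes of -0.01 ± 0.13 in oligodendrocytes, 0.41 ± 0.22 in astrocytes, 0.02 ± 0.16 in OPCs and -0.61 ± 0.45 in endothelial cells.

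In oligodendrocytes, the myelinating cells and the largest class, 5 genes were called higher and 0 lower by edgeR. Of all genes tested there, 1.6% were called, 1.01% higher and 0.591% lower. Every TESS library was above every CON library for 7 of the 10 (11.4% of all genes) and below for 0 (8.13%). Lrrtm4 stood at 104, 105 and 145 CPM in CON and at 226, 273 and 476 in TESS (log2 fold change 1.37 ± 0.22). Cntnap2 stood at 146, 155 and 262 CPM in CON and at 365, 370.0 and 731 in TESS (1.31 ± 0.27). Fam155a stood at 69.9, 71.3 and 101 CPM in CON and at 142, 128 and 299 in TESS (1.13 ± 0.25). In each of these the TESS 3 library was the highest and CON 3 the highest control.

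Galntl6 (0.98 ± 0.23) and Lsamp (0.75 ± 0.18) were the other 2 called in oligodendrocytes. Lsamp stood at 584.5, 582.4 and 779 CPM in CON and at 856, 1021 and 1539 in TESS. Lrrc4c (0.38 ± 0.13) and Il1rapl1 (0.23 ± 0.15) separated the groups by smaller amounts without a call. Opcml (0.17 ± 0.18), Tenm2 (0.11 ± 0.15) and Csmd3 overlapped. The last 5 are the genes with the highest oligodendrocyte level relative to neurons, at 16.6% to 68.2%, against 6.09% to 9.74% for the 5 called.

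In astrocytes, the glial cells that cover synapses and vessels, 3 genes were called higher and 0 lower by edgeR. Of all genes tested there, 1.02% were called, 0.781% higher and 0.244% lower. Every TESS library was above every CON library for 3 of the 10 (9.08% of all genes) and below for 0 (7.52%). Cntnap2 stood at 142, 108 and 165 CPM in CON and at 432, 285 and 561 in TESS (log2 fold change 1.55 ± 0.27). Tenm2 stood at 79.6, 66.3 and 112 CPM in CON and at 283, 110 and 378 in TESS (1.497 ± 0.33), with TESS 2 inside the range of the controls. Lrrtm4 stood at 101, 116 and 88.6 CPM in CON and at 216, 142 and 378 in TESS (1.24 ± 0.31). The counts behind these are small, 46 to 75 UMIs in CON and 60 to 104 in TESS.

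Galntl6 in astrocytes (1.47 ± 0.55) separated the groups on 20 against 27 UMIs and was not called. Opcml (0.50 ± 0.42) and Fam155a (0.42 ± 0.28) overlapped. The 3 genes that astrocytes hold at high levels differed little: Lsamp by -0.13 ± 0.14, Lrrc4c by -0.05 ± 0.15 and Il1rapl1 by -0.03 ± 0.17.

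In OPCs 1 gene was called higher. Of all genes tested there, 0.233% were called, 0.155% higher and 0.0776% lower. Cntnap2 stood at 161, 235 and 188 CPM in CON and at 669, 559.6 and 1091 in TESS (log2 fold change 1.98 ± 0.29), without overlap, which 8.38% of all genes tested showed in that direction. Galntl6 stood at 35.8, 85.5 and 188 CPM in CON and at 102, 559.6 and 397 in TESS (1.82 ± 0.73), overlapping. Il1rapl1 had every TESS library below every CON library (4.97% of all genes tested), at 2382, 2361 and 2587 CPM in CON and 2209.6, 1839 and 2016 in TESS (-0.29 ± 0.16), and was not called. The other 7 genes, most of them at high OPC levels, lay between -0.13 ± 0.12 (Lsamp) and 0.30 ± 0.18 (Fam155a) and overlapped.

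Endothelial cells gave no usable answer for most of the genes. Only Cntnap2, Lrrc4c, Lsamp and Csmd3 had enough counts to be tested and 0 of the 4 were called by edgeR or DESeq2, with 0 of 4 at an unadjusted p below 0.05 (2.06% of all genes tested were called, 1.03% higher and 1.03% lower). The groups overlapped for all 10 genes, while 14.8% of all genes tested had every TESS library above every CON library and 7.89% every one below. Their fold changes ranged from -0.61 ± 0.45 (Csmd3) to 0.01 ± 0.92 (Lsamp). The UMIs of the 9 genes other than Csmd3 were concentrated in few endothelial nuclei, and the 10% of nuclei with the most held 38.1% to 87.4% of them in CON and 26.1% to 77.1% in TESS.

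**Figure D2:**
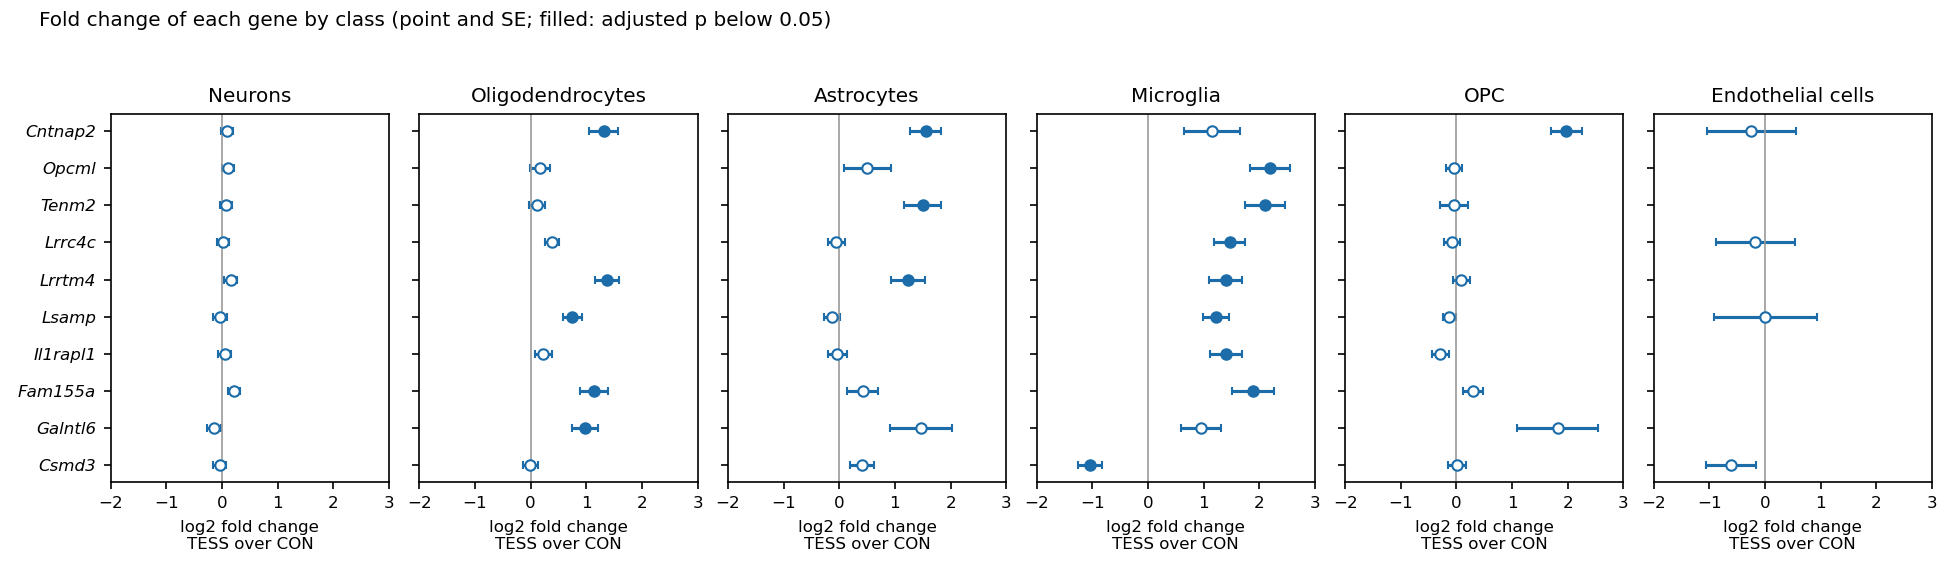
Log2 fold change of TESS over CON for each gene in each class (points, with SE as bars, edgeR on counts summed per library, n = 3 per group); filled points are called at adjusted p below 0.05 and genes too low to test have no point. Neuron values lie between -0.15 and 0.22, while the microglial values of the 9 genes other than Csmd3 lie between 0.96 and 2.19.

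Neurons were the test that the choice of genes did not use. None passed: 0 of 10 genes were called by edgeR (adjusted p 0.325 to 0.952 over 11686 genes) and 0 by DESeq2, with 1 of 10 at an unadjusted p below 0.05, while 1.19% of all genes tested in neurons were called, 0.325% higher and 0.864% lower. Fam155a, the 1 gene with every neuronal TESS library above every CON library (10.9% of all genes tested; 8.61% had every one below), stood at 1879.6, 1832 and 2035 CPM in CON and at 2346, 2235 and 2212 in TESS, a log2 fold change of 0.22 ± 0.11 (adjusted p = 0.325, edgeR). Galntl6 was at the other end with -0.15 ± 0.13, from 1979 ± 291 to 1818 ± 218 CPM. Cntnap2 differed by 0.08 ± 0.11, Lrrtm4 by 0.16 ± 0.12, Opcml by 0.11 ± 0.11 and Tenm2 by 0.06 ± 0.11. Lrrc4c (0.02 ± 0.11), Lsamp (-0.04 ± 0.12), Il1rapl1 (0.05 ± 0.12) and Csmd3 (-0.04 ± 0.12) were nearest to 0, and each of these 4 changed sign under at least 1 alternative. The median over the 10 was 0.06 in neurons, against -0.01 over all genes, 1.40 in microglia and 0.57 in oligodendrocytes. Whether the neuronal and the glial differences themselves differ was not tested, because the glial ones chose the genes.

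Within neurons the levels of the 10 genes varied between subtypes. Among the 24 of 38 authors' subtypes with at least 10 nuclei in every library, Lrrtm4 ranged from 90.5 ± 85.3 CPM in Trh neurons to 6404 ± 679.7 in Tac1 neurons (SD over 6 libraries). Galntl6 ranged from 113 ± 34.5 CPM in Tac2/Nmu neurons to 7952 ± 1453 in Tac1 neurons. Tenm2 ranged from 105 ± 96.8 CPM in Npyr-1 neurons to 4922 ± 524 in Lxh1/Nxph1 neurons. Lrrc4c was lowest in Rorb neurons (246 ± 172) and highest in Nts neurons (6148 ± 478), and Il1rapl1 lowest in Bnc2 neurons (109 ± 132). Cntnap2, Lsamp, Fam155a and Opcml were more even, with 4.05 to 6.53 times between the lowest and the highest subtype. For each of the 10 the highest and the second subtype overlapped. These values describe levels, and subtypes were not compared between TESS and CON for these genes.

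The size of the glial difference followed how low a gene was in that class. The level of each gene in each glial class was expressed as a percent of its level in neurons, and cut points of 15% and 50% were set after the values were seen. Of 22 pairs of gene and class below 15%, 17 had every TESS library above every CON library, 16 were called higher, and the median log2 fold change was 1.39. Of 6 pairs from 15% to 50%, 2 had that order, 0 were called, and the median was 0.20. Of 12 pairs above 50%, 0 had that order, 2 had every TESS library below, 1 (Csmd3 in microglia) was called lower, and the median was -0.05. Over all genes tested in these 4 classes, 8.38% to 11.4% had every TESS library above and 4.97% to 8.76% every one below. Of them, 0.155% to 1.01% were called higher and 0.0776% to 0.591% lower. The values of the 10 are the same ones that chose the genes, so the order is a description and was not tested. Endothelial cells did not follow it. With them included, 26 pairs lay below 15%, of which 17 had every TESS library above and 16 were called higher. The median of these pairs was 1.27 and the lowest value -0.61.

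Lsamp shows the contrast within 1 gene. It differed by 1.23 in microglia and 0.75 in oligodendrocytes, where it was at 9.39% and 9.74% of the neuronal level, and by -0.13 in astrocytes and OPCs, where it was at 157% and 103%. Cntnap2, low in all glia at 5.30% to 9.72%, had values from 1.15 to 1.98 in the 4 glial classes. Il1rapl1 was at 13.1% in microglia (1.40), 31.5% in oligodendrocytes (0.23), 75.9% in astrocytes (-0.03) and 112% in OPCs (-0.29).

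**Figure D3:**
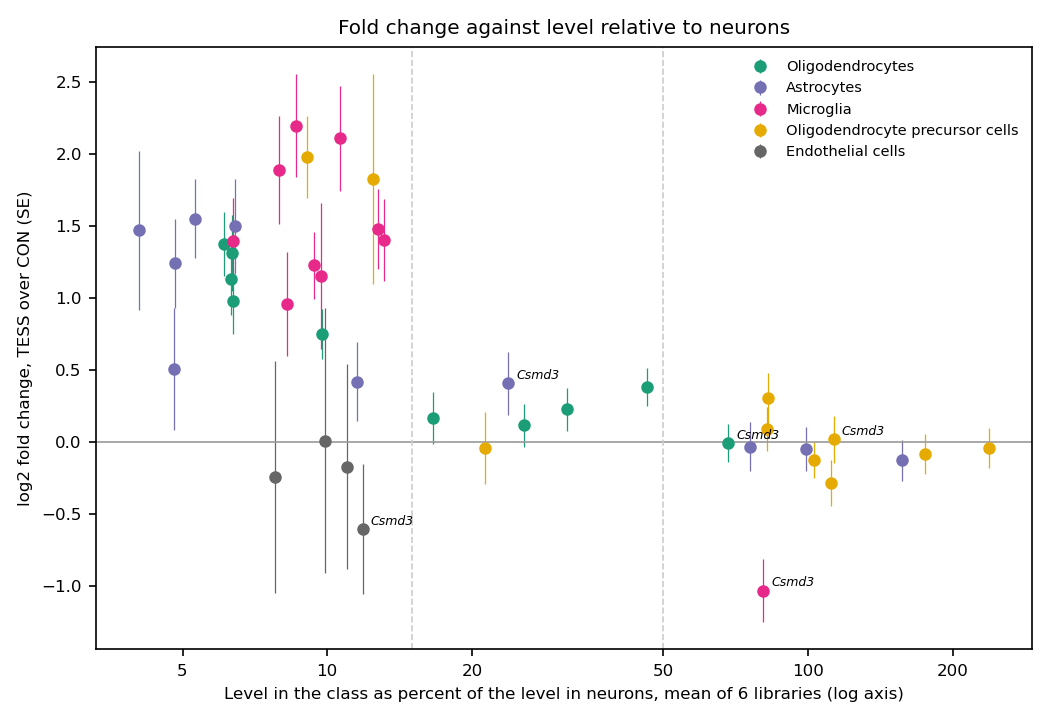
Log2 fold change of TESS over CON (vertical axis, SE as bars) against the level of the gene in the class as a percent of its level in neurons (horizontal log axis, mean of 6 libraries), 1 point per gene and class, coloured by class, Csmd3 named; dashed lines mark 15% and 50%. Glial points below 15% lie above 0, between 0.42 and 2.19, and the point furthest below 0 is Csmd3 in microglia at -1.03.

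The summed level of neuronal markers overlapped between the groups. A list of 24 neuronal markers (such as Snap25, Syt1 and Rbfox3) was meant to hold short genes but was not filtered by length. It was detected in full in the 4 glial classes, and its summed level in microglia was 3982 ± 661 CPM in CON and 3901 ± 659 in TESS. That is 26.1% and 26.0% of the neuronal level, above the 3.28% to 7.27% at which the 9 long genes stood in CON microglia. In oligodendrocytes the sum was 3651 ± 484 and 3973 ± 562 CPM, in astrocytes 2404 ± 325 and 2497 ± 578, in OPCs 3689.9 ± 251 and 3969 ± 794, and in endothelial cells 2546 ± 836 and 2064 ± 1181. Two-sided exact permutation tests gave p = 0.5 to 0.9 in the 5 classes (n = 3 per group, adjusted p = 0.9 in each, smallest possible p 0.1). In microglia 14 of the markers were tested, with a median log2 fold change of -0.06. edgeR called 0 of them (2 at an unadjusted p below 0.05), and the most abundant there was Snap25 at 667 CPM. In oligodendrocytes 23 were tested, 0 were called by edgeR (6 at an unadjusted p below 0.05) and the median was 0.03. This design cannot pass a threshold of 0.05 for the sums, so the test does not show that they were the same.

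Summed markers of other classes also differed between the groups in some classes, neurons among them, and in both directions. In microglia the 9 astrocyte markers summed to 635 to 738 CPM in CON and 956 to 1062 in TESS, and the 8 OPC markers to 143 to 229 and 301 to 498, neither overlapping. All 9 and all 8 were detected there. In oligodendrocytes the OPC markers summed to 228 to 261 CPM in CON and 296 to 402 in TESS, and the 11 microglial markers to 262 to 289.8 and 294 to 357. The astrocyte markers there overlapped, at 424 to 660 CPM in CON and 650 to 780 in TESS. In neurons, where none of the long genes was called, the OPC markers summed to 1189 to 1337 CPM in CON and 1442 to 1522 in TESS, without overlap. The endothelial markers were lower in TESS without overlap in neurons (84.1 to 128 CPM in CON, 54.9 to 69.8 in TESS). The same held at low levels in astrocytes (16.8 to 33.2 and 11.0 to 13.5). Of single genes tested, 8.6% in microglia, 11.4% in oligodendrocytes and 10.9% in neurons had every TESS library above every CON library. Astrocytes and OPCs both hold Lsamp, Lrrc4c and Il1rapl1 at 75.9% of the neuronal level or more, and OPCs also hold Opcml (239%), Lrrtm4 (82.3%) and Fam155a (82.5%), so that these 6 genes are high in a class whose markers were higher in TESS microglia. The part of these markers in the microglial and oligodendrocyte differences was not tested. How far gene length shaped these marker sums was not tested either. Genes of 500 kb or more not enriched in neurons, apart from those described here, had a median log2 fold change of 0.41 in microglia. Their median was 0.20 in oligodendrocytes and 0.07 in neurons.

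Microglia with no UMI of the 24 neuronal markers, 47 to 102 nuclei per library, are a subset of the nuclei whose values chose the genes, so their levels are a description and support nothing. There the 9 genes summed to 1268, 1588 and 2065 CPM in CON and 3776, 3359.9 and 5189 in TESS, that is 1640.5 ± 401 and 4108 ± 959. Csmd3 in the same nuclei was at 2605, 2547 and 2753 CPM in CON and 1180.0, 623 and 853 in TESS, that is 2635 ± 106 and 885 ± 279.7. For Csmd3 the 3 CON libraries lay closer together than in all microglia and the gap was wider, with a log2 fold change of -1.48. Taken singly the genes rest on few UMIs in these nuclei, and 4 of the 9 overlapped between the groups: Cntnap2 (31 UMIs in CON, 45 in TESS), Lrrc4c (22 and 40), Il1rapl1 (13 and 22) and Galntl6 (7 and 10). Lrrc4c and Il1rapl1 had not overlapped in all microglia. The 7 of the 17 called pairs of gene and class that could be tested in such nuclei each had the sign seen in all nuclei, and the log2 fold change of Galntl6 in oligodendrocytes fell to 0.46.

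**Figure D4:**
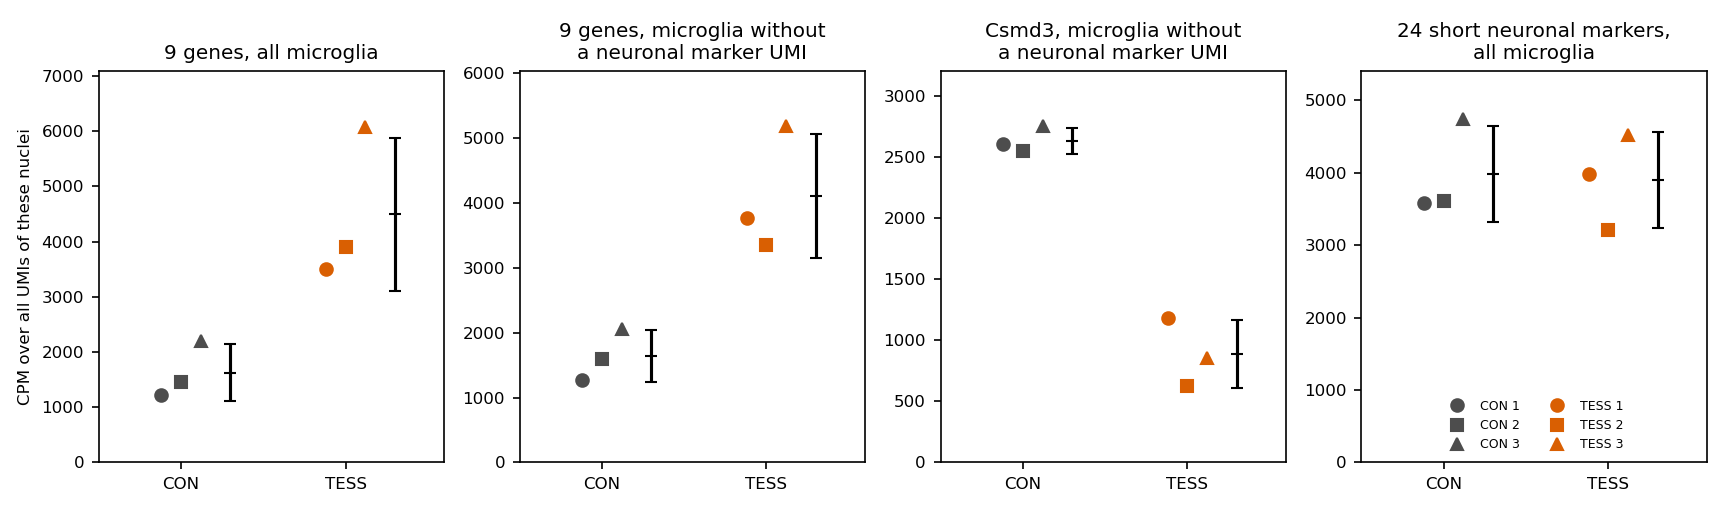
Summed CPM in microglia by library: the 9 genes other than Csmd3 in all microglia and in microglia with no neuronal marker UMI, Csmd3 in the latter, and the 24 neuronal markers in all microglia. The panel title calls these markers short, but they were not filtered by length. Marks are libraries, bars are mean and SD (n = 3 per group), and each axis starts at 0. The 9 genes separate CON from TESS in both panels and Csmd3 does so in the opposite direction, while the marker sums overlap.

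The share of nuclei with a molecule of these genes was compared at equal depth, since TESS 2 and TESS 3 microglia were shallower (median 265.5 and 276 UMIs per nucleus, against 316 to 410.5 in the other libraries). Nuclei under 300 UMIs were left out and the rest were thinned to 300 UMIs. This kept 236 of 293, 297 of 330 and 164 of 273 microglia in CON 1 to 3. In TESS 1 to 3 it kept 277 of 326, 74 of 256 and 67 of 178. The thinned shares of TESS 2 and TESS 3 thus describe only a deeper minority of their microglia. At least 1 UMI of the 9 genes was found in 29.6% to 43.3% of CON microglia and 58.8% to 73.1% of TESS microglia, and unthinned in 39.2% to 52.4% and 64.5% to 84.3%. In endothelial cells, a class of another lineage with a median of 786 UMIs against 343 in microglia, the thinned shares were 19.0% to 42.9% in CON and 41.2% to 50% in TESS. Unthinned, they were 51.2% to 66.1% in CON and 78.6% to 88.0% in TESS, so the endothelial share was itself higher in TESS, without overlap. In endothelial nuclei with no neuronal marker UMI, 5 to 16 per library, the 9 genes summed to 146 to 1686 CPM in CON and 1775 to 2646 in TESS, also without overlap, while over all endothelial nuclei the sums overlapped (728 to 4359 and 1609.7 to 5505). The thinned shares of CON microglia overlapped the endothelial ones, and those of TESS microglia lay above them. Whether the endothelial share is background was not tested. What raised the endothelial share was not tested.

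Csmd3 was found in 35.98% to 43.2% of thinned CON microglia and 8.96% to 33.9% of TESS microglia (43.2% to 48.5% and 20.7% to 40.8% unthinned), against 5.36% to 23.8% and 2.94% to 9.52% of endothelial nuclei. The UMIs of the 9 genes were spread over many microglia, and the 10% of nuclei with the most held 33.0% to 40.5% of them in CON and 28.5% to 32.4% in TESS. No doublet caller was run. Leaving out nuclei above 2 times the median UMI total of their class in the same library kept 8 of the 10 genes called in microglia and 5 in oligodendrocytes.

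Other long genes enriched in neurons lay higher in the same classes. Apart from the 10, the 63 neuron-enriched genes of 500 kb or more tested in oligodendrocytes had a median log2 fold change of 0.97, 63 of 63 were above 0 and 20 were called higher. In microglia 20 such genes had a median of 1.14, with 18 above 0 and 6 called higher, and in astrocytes 23 had a median of 0.25 with 3 called higher. In OPCs 37 had a median of 0.24 and edgeR called 0 (5 at an unadjusted p below 0.05). In neurons 69 had a median of 0.06, with 0 called higher and 1 lower by edgeR (10 at an unadjusted p below 0.05). In endothelial cells the 6 tested had a median of -0.81 and edgeR called 0 (0 at an unadjusted p below 0.05).

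In the 4 glial classes the medians of the other groups were below that of long neuron-enriched genes, which was not so in neurons (0.07 for long genes not enriched) or in endothelial cells. Shorter genes enriched in neurons had medians of 0.43 in oligodendrocytes (258 genes, 9 called higher and 1 lower), 0.21 in microglia (15) and -0.02 in astrocytes (22). Long genes not enriched in neurons had medians of 0.20 in oligodendrocytes (132) and 0.41 in microglia (87). Shorter genes not enriched had a median of -0.02 in oligodendrocytes and in microglia. These groups are described by their counts and medians and were not tested as sets. A gene could reach the count minimum through the libraries of 1 group alone, as Opcml did in microglia through TESS. The medians and the counts above 0 of genes that are low in glia may therefore partly reflect this filter, which was not tested. In microglia the short enriched group is small, since few short neuronal genes reached the count minimum there.

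**Figure D5:**
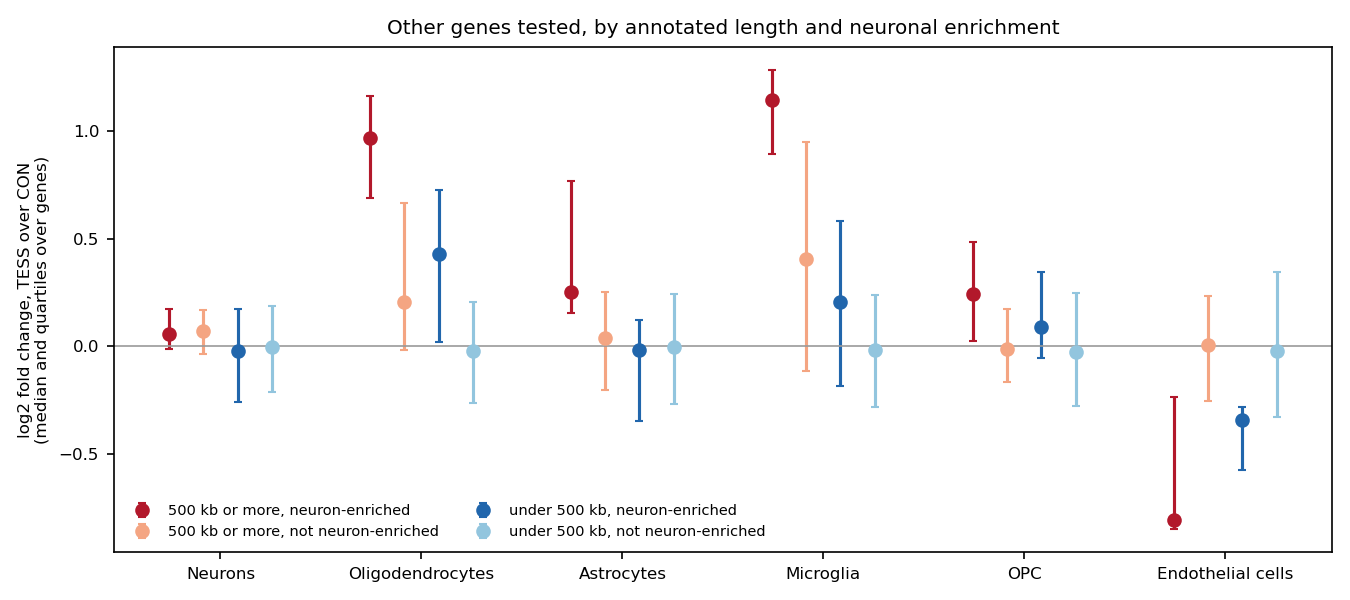
Median log2 fold change of TESS over CON (points) with quartiles over genes (bars) for genes other than the 10, by class, annotated length (500 kb or more, or under) and enrichment in neurons (at least 4 times the mean of the other classes). The group of long neuron-enriched genes has its highest medians in microglia (1.14) and oligodendrocytes (0.97) and is at 0.06 in neurons.

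Relatives of the 10 genes were taken from these families: IgLON, contactins and contactin-associated proteins, teneurins with latrophilins and FLRT proteins, leucine-rich repeat organisers, IL1RAPL with LAR-type phosphatases, the NALCN complex, GalNAc transferases, and CSMD. In oligodendrocytes 44 of 68 relatives were tested and 6 were called higher (edgeR, adjusted p below 0.05). Of all genes tested there 1.01% were called higher, and of the long neuron-enriched genes apart from the 10, 31.7%. The 6 were the contactins Cntn4 (0.86 ± 0.23) and Cntn5 (1.38 ± 0.24), the contactin-associated Cntnap5a (1.10 ± 0.28) and Cntnap5b (1.34 ± 0.31), the synaptic organiser Lrfn5 (1.07 ± 0.27), and Csmd1 (1.08 ± 0.25). Cntn5 stood at 40.1, 41.8 and 49.97 CPM in CON and at 85.3, 106 and 179 in TESS. Csmd1, a paralog of Csmd3, stood at 94.0, 99.8 and 126 CPM in CON and at 164, 182 and 381 in TESS oligodendrocytes, so the 2 CSMD genes parted there.

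In microglia 15 relatives were tested with a median of 0.53 and edgeR called 0 (6 at an unadjusted p below 0.05), and those with the largest values were Cntn4 (1.5 ± 0.44), Cntn5 (1.30 ± 0.40), Csmd1 (1.11 ± 0.33), Lrfn5 (1.08 ± 0.49), Adgrl3 (0.99 ± 0.30) and Ptprd (0.92 ± 0.26), none of which passed. GalNAc transferases other than Galntl6 lay near 0 in microglia (Galnt1 -0.19 ± 0.33, Galnt7 0.03 ± 0.30), and both are expressed there above the neuronal level. In neurons 63 relatives were tested with a median of 0.01, and edgeR called 0 (11 at an unadjusted p below 0.05). edgeR also called 0 of 20 in astrocytes (2 at an unadjusted p below 0.05), 0 of 20 in OPCs (1) and 0 of 3 in endothelial cells (0).

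The genes most like the 10 in their pattern were sought among 7100 other genes, by Pearson r of log2(CPM + 10) centred within class, over the 30 sums of a library and a non-neuronal class. These points share libraries and depth, so r is a description. For the mean of the 9 genes other than Csmd3, the likest were Rbfox1 (r = 0.90), Kcnb2 (0.89), Fgf14 (0.88), Lingo2 (0.88), Kcnd2 (0.86), Kcnq3 (0.86), Asic2 (0.86) and Otud7a (0.85). Their annotated lengths ran from 300.3 kb (Kcnq3) to 1526 kb (Rbfox1), and Rbfox1, Kcnb2, Fgf14, Lingo2 and Asic2 met the rule for enrichment in neurons. Kcnb2, Kcnd2 and Kcnq3 encode potassium channel subunits, Asic2 an acid-sensing channel, and Rbfox1 a splicing factor of neurons. For Csmd3 the likest were Eprs (r = 0.77), Zfp638 (0.73), Fbxo10 (0.72), Ice2 (0.72) and Foxj3 (0.70), of 35.2 kb (Ice2) to 122 kb (Zfp638), and none of these 5 was enriched in neurons.

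TESS 3 decided many of the calls. It was the highest of the 6 libraries for 8 of the 10 genes in microglia and 7 in oligodendrocytes. Without TESS 3, 13 of the 17 called pairs of gene and class were no longer called, leaving Opcml in microglia, Lrrtm4 in oligodendrocytes, and Cntnap2 in astrocytes and OPCs. Calls were also lost in oligodendrocytes without CON 1 or without CON 2 (Lsamp, Fam155a, Galntl6) and without TESS 2 (Cntnap2, Lsamp). The Lrrtm4 call was lost in microglia without CON 1 or without CON 2, and in astrocytes without CON 1 or without CON 3. With batch as a term in the fit, CON 3, TESS 2 and TESS 3, each alone in its batch, add nothing to the group difference. It then rests on TESS 1 against CON 1 and CON 2, so its calls are not counted here. Every one of the 17 kept its sign in each alternative run. Without TESS 3 the microglial values were 2.23 for Opcml, 1.73 for Tenm2, 1.56 for Fam155a, 1.23 for Lrrc4c, 0.96 for Lsamp and -0.92 for Csmd3. Several values fell by over 1.5 times without it. Among them were Fam155a in oligodendrocytes from 1.13 to 0.71 and Lsamp in oligodendrocytes from 0.75 to 0.49. Lrrtm4 in astrocytes fell from 1.24 to 0.78, Cntnap2 in microglia from 1.15 to 0.68, and Fam155a in astrocytes from 0.42 to 0.26. Opcml in oligodendrocytes, which was not called, changed sign from 0.17 to -0.02. Within batch 3 the microglial values were 2.48 for Opcml, 2.14 for Tenm2, 1.49 for Lrrc4c, 1.37 for Lrrtm4, 1.32 for Il1rapl1, 1.28 for Fam155a and 0.98 for Lsamp, with no replicate in TESS. In the same batch the oligodendrocyte values were 1.23 for Cntnap2, 1.06 for Lrrtm4 and 0.51 for Lsamp.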

How the data were processed

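Single-nucleus RNA was counted in 6 libraries, 3 TESS and 3 CON. The authors deposited 1 matrix of UMI counts per gene and nucleus, not normalised, with a table naming each nucleus's library, batch number, class and neuron subtype. That deposited table also gives a fraction per nucleus (apparently the mitochondrial share of counts), which was not used. Per the submitters' processing notes, Cell Ranger 2.2.0 and Seurat 3 were used with builds mm10 and GRCm38. The filters on nuclei, the use of introns or strand in counting, and the meaning of the batch number were not given in the sources used here.

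Counts were summed per library and authors' class and fitted over all genes with edgeR 4.0.16 (R 4.3.3; TMM, filterByExpr with a minimum count of 10, robust quasi-likelihood test). Calls needed an adjusted p (Benjamini-Hochberg, all genes tested) under 0.05. Single values were tested by exact permutation (scipy 1.17.1, Python 3.11.15). Lengths came from GENCODE vM21, where 19153 symbols matched 1 gene. The genes and all lists were chosen with earlier results of these data known. Named genes are the 10, called or largest members of their families, and the 8 likest genes of the 9 and 5 of Csmd3. Alternatives were other size factors, no filter, DESeq2 1.42.0, batch or replicate number as a term, nuclei thinned to 300 UMIs, nuclei without high UMI totals or neuronal markers, equal subtype numbers, and each library left out. The fit was tested on simulated data. Total counts were 1582104 to 4037976 per library.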

Additional observations from a re-analysis of the deposited data

Results flagged for a closer look

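Il1rapl1 had its libraries ordered in opposite directions in different glial classes. In oligodendrocytes every TESS library was above every CON library, with a log2 fold change of 0.23 (TESS over CON), and in microglia likewise, with 1.40. In oligodendrocyte precursor cells every TESS library was below every CON library, with a log2 fold change of -0.29. Neither the oligodendrocyte nor the precursor value passed the edgeR test, and 11.4% of all genes tested in oligodendrocytes and 4.97% in precursor cells had libraries in the same order. The difference between the classes was not tested.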

How the results depend on the processing

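Over all genes, edgeR called 139 in neurons, 141 in oligodendrocytes, 21 in astrocytes, 26 in microglia, 3 in OPCs and 12 in endothelial cells, and of the 10 genes 0, 5, 3, 8, 1 and 0. The cause of the changes below was not tested. Without the filter on low counts, 345 were called in neurons, 269 in oligodendrocytes and 2 of the 10 in OPCs, and Lrrc4c in neurons was at -0.0021. With batch as a term, edgeR called 0 in neurons (785 at an unadjusted p below 0.05), 66 in oligodendrocytes (3 of the 10), 3 in astrocytes, 9 in microglia (5 of the 10), 1 in OPCs and 0 in endothelial cells (30 unadjusted). After thinning to 300 UMIs, 35 were called in neurons, 74 in oligodendrocytes (2 of the 10), 12 in astrocytes (1), 16 in microglia, 0 in OPCs by edgeR (42 at an unadjusted p below 0.05; 0 of the 10, 0 unadjusted) and 1 in endothelial cells, and the OPC sum of neuronal markers was at -0.038 (log2). With equal subtype numbers, 69 were called in neurons and Il1rapl1 there was at -0.017. DESeq2 called 6 in astrocytes (1 of the 10), 17 in microglia, 1 in OPCs and 2 in endothelial cells. In nuclei without a neuronal marker UMI, edgeR called 47 in oligodendrocytes (3 of the 10), 3 in astrocytes (0 of 3 tested, 0 at an unadjusted p below 0.05), 8 in microglia (2 of the 10), 0 in OPCs (4 unadjusted; 0 of 7 tested, 0 unadjusted) and 0 in endothelial cells (4 unadjusted). Without nuclei of high UMI totals, 9 were called in OPCs and the OPC marker sum was at -0.058 (log2).

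Whether the replicate numbers pair the libraries is not known. Correlations of same-numbered deviations ran from -0.16 to 0.34 over the classes. In microglia they were 0.04, 0.06 and 0.07, and each CON library was most like the TESS library of its own number. With the replicate block, 232 were called in neurons, 257 in oligodendrocytes, 97 in microglia, 13 in OPCs (2 of the 10) and 31 in endothelial cells.

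With each library left out in turn, calls ranged from 21 to 142 in neurons, 33 to 163 in oligodendrocytes, 9 to 22 in astrocytes, 1 to 61 in microglia, 2 to 12 in OPCs and 0 to 14 in endothelial cells (edgeR; 93 at an unadjusted p below 0.05 where 0 were called). Of the 10, calls ranged from 1 to 5 in oligodendrocytes, 1 to 3 in astrocytes, 1 to 9 in microglia and 1 to 2 in OPCs. The marker sums (log2, TESS over CON) ranged from 0.013 to 0.24 in oligodendrocytes, -0.053 to 0.24 in astrocytes, -0.15 to 0.12 in microglia, -0.060 to 0.23 in OPCs and -0.83 to 0.027 in endothelial cells, and the difference in neuron share from -2.55 to 2.42 percentage points. In neurons Lrrc4c ranged from -0.053 to 0.093, Lsamp from -0.13 to 0.023, Il1rapl1 from -0.076 to 0.14 and Csmd3 from -0.15 to 0.059.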
